A study of Homo sapiens with 8 samples.

Results

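Non-homologous end joining rejoins broken DNA ends directly. The Ku heterodimer, made of XRCC6 (Ku70) and XRCC5 (Ku80), binds the ends and recruits the kinase DNA-PKcs, encoded by PRKDC. The nuclease Artemis (DCLRE1C) and the polymerases encoded by POLL and POLM process the ends, and XRCC4 with ligase LIG4 seals them. NHEJ1 (XLF) and PAXX, structural relatives of XRCC4, hold the ends together. The members were these 10 genes, matched by symbol to 10 of the 80311 rows of a gene count table. All 10 passed the filter on low counts, among 43321 rows tested.

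The 8 libraries were total RNA-seq of U2OS, a human osteosarcoma line, in 4 groups of 2. U2OS AsiSI cells (AiD-DiVA AsiSI-ER), in which 300 nM 4-hydroxytamoxifen (4-OHT) was given for the last 4 h to induce breaks at AsiSI sites, received siMePCE or the control siNC. U2OS-Flp-In-TREx cells received siMePCE or siNC, and no 4-OHT treatment is stated for them. Every group had 2 rounds of siRNA, at 0 h and 48 h, and was lysed at 96 h. MEPCE encodes the enzyme that caps 7SK RNA. Line and 4-OHT cannot be told apart, and no source used here says whether a line was 1 clone or whether the 2 libraries of a group came from separate cultures. The p-values therefore measure the spread between these libraries, which may be technical.

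Library totals ran between 41431776 and 53695626 counts. MEPCE had 3.65 and 2.30 counts per 1000000 of the TMM-scaled library size (CPM) in AsiSI siMePCE, against 29.3 and 29.3 CPM in AsiSI siNC. It had 5.35 and 4.84 CPM in Flp-In siMePCE, against 39.9 and 40.1 CPM in Flp-In siNC. MEPCE thus fell 9.85-fold in AsiSI and 7.85-fold in Flp-In, although a row that overlaps its span holds 1.08 times its counts. The mesenchymal and osteoblast-lineage markers VIM, CDH2, COL1A1 and RUNX2 had at least 24.6 CPM in every library, and the blood and epithelial markers PTPRC, EPCAM and CDH1 at most 7.57 CPM. PECAM1 was not matched to a row. Mitochondrial genes took 9.63% and 10.55% of counts in AsiSI siMePCE against 5.89% and 5.91% in AsiSI siNC, and 8.66% and 8.24% in Flp-In siMePCE against 5.23% and 5.52% in Flp-In siNC. Without the mitochondrial, 7SK, 7SL and rRNA rows, no member gained or lost a call. In bulk RNA, fewer cells expressing a gene and less RNA per cell cannot be told apart.

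In each line, 5 of the 10 members fell and 1 rose with siMePCE (edgeR's quasi-likelihood test, Benjamini-Hochberg adjusted p under 0.05 over all rows tested). PRKDC, PAXX, POLL and DCLRE1C fell and XRCC4 rose in both lines. The fifth gene to fall was LIG4 in Flp-In and NHEJ1 in AsiSI. XRCC5, XRCC6 and POLM passed the test in neither line. Over all rows, 21.4% fell and 16.8% rose in AsiSI, and 22.8% fell and 18.1% rose in Flp-In. Among protein-coding rows, 35.1% fell in AsiSI and 34.3% in Flp-In, and 17% rose in AsiSI and 20.6% in Flp-In, so calls in either direction were common. The median log2 fold change of the members was -0.38 in AsiSI and -0.20 in Flp-In, beside 0.04 and 0.03 over all rows and -0.14 and -0.10 over coding rows.

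**Figure D1:**
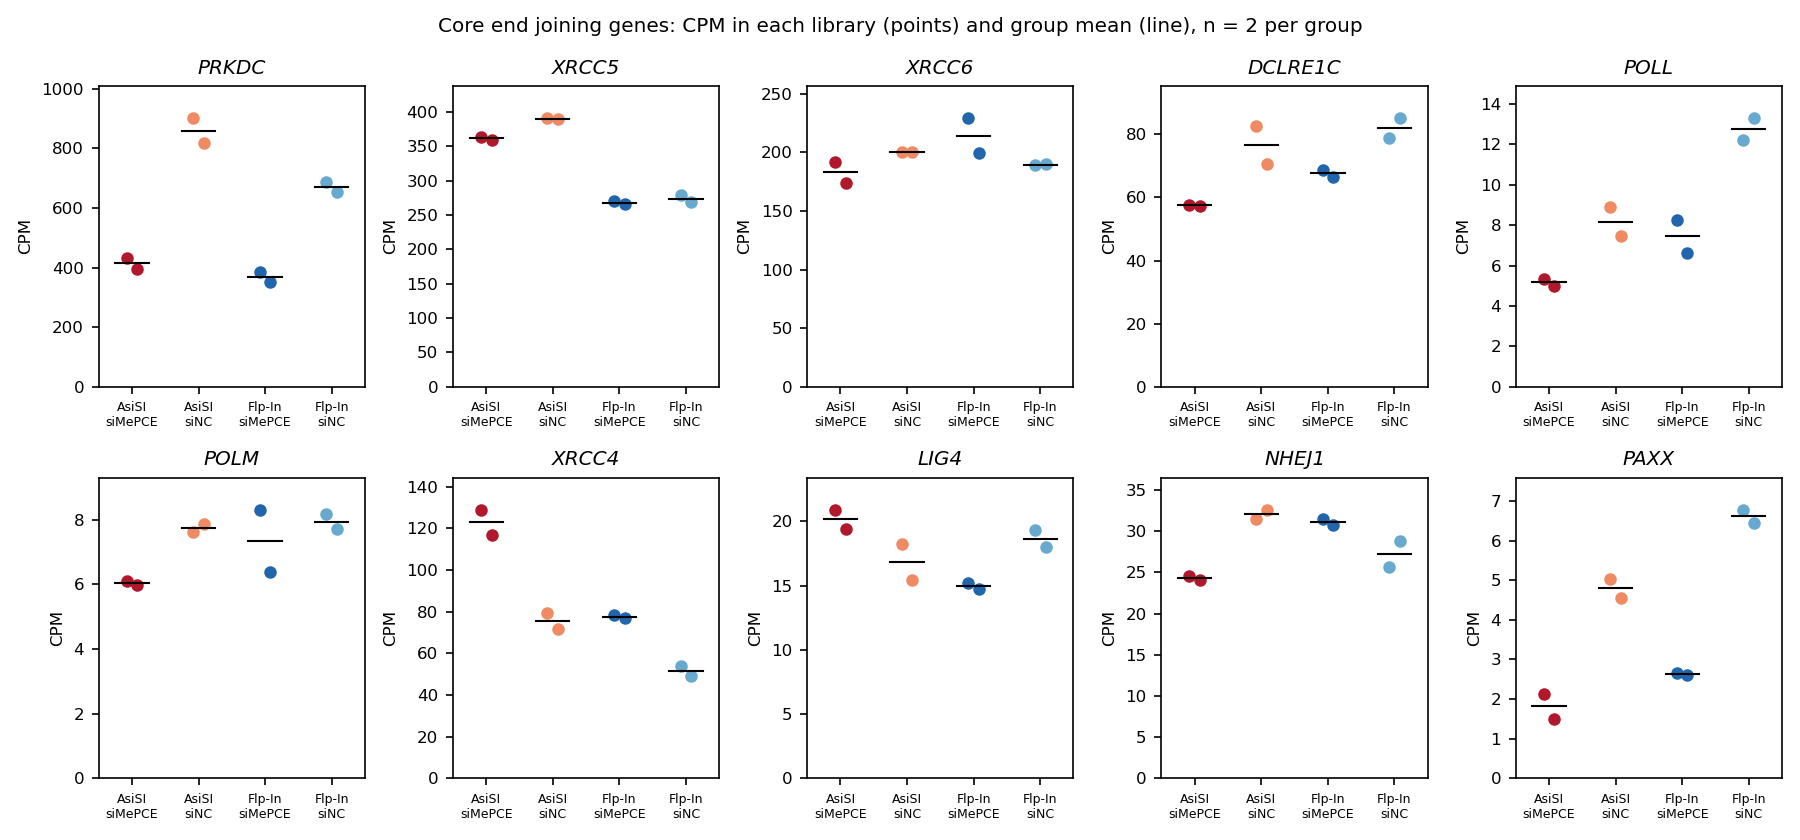
CPM of each member in each library (points, 2 per group; AsiSI siMePCE, AsiSI siNC, Flp-In siMePCE, Flp-In siNC, left to right), each panel with its own axis starting at 0. PRKDC and PAXX are lower in both siMePCE groups than in the siNC groups of the same line, and XRCC4 is higher.

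Promoters are shown for 2 of the members called the same way in both lines, as those for which at least 200 bases before the RefSeq start were free of annotated exons. Windows were read for 8 of the 10 members, not for PRKDC and XRCC5. Windows are from RefSeq on GRCh38.p14, 5′ to 3′ on the gene's strand. Capitals mark GC boxes (GGGCGG, or CCGCCC on the other strand), CCAAT boxes (CCAAT or ATTGG) and an ETS core (CCGGAAG).
PAXX, chr9:136992172-136992417, plus strand: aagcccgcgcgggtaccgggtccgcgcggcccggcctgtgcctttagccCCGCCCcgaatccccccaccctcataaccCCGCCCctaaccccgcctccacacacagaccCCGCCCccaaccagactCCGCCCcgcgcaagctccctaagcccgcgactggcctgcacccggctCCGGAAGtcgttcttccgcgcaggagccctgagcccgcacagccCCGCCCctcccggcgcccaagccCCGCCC
DCLRE1C, chr10:14954433-14954682, minus strand: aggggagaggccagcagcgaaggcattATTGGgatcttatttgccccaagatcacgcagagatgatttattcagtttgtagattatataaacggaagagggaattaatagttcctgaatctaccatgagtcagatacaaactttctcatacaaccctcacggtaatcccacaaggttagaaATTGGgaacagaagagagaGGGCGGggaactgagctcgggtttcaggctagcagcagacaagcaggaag
The PAXX window holds 6 GC boxes, all as CCGCCC, and 1 ETS core. The DCLRE1C window holds 2 CCAAT boxes, both as ATTGG, and 1 GC box. Among 35114 promoters of 250 bases before the start, 42.6% hold a GC box on either strand, 32.0% a CCAAT box and 8.52% an ETS core. The matches are a description of these letters and were not tested as binding sites.

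In the main fit the Ku genes did not pass the test for siMePCE in either line, but XRCC6 passed in Flp-In under some other settings. XRCC5 lies at chr2:216972187-217071026 on the plus strand and XRCC6 at chr22:42017167-42060052, also plus (hg19, as for every gene position here). XRCC5 had 364 and 359 CPM in AsiSI siMePCE, against 391 and 390 CPM in AsiSI siNC. It had 270 and 266 CPM in Flp-In siMePCE, against 279 and 269 CPM in Flp-In siNC. The AsiSI groups did not overlap, the Flp-In groups did, and the log2 fold changes were -0.11 in AsiSI (edgeR adjusted p = 0.244, SE 0.0735) and -0.03 in Flp-In (edgeR adjusted p = 0.758, SE 0.0737). An approximate 95% interval from the SE ran between -0.26 and 0.03 in AsiSI and between -0.18 and 0.11 in Flp-In. XRCC6 had 192 and 174 CPM in AsiSI siMePCE against 200 and 200 CPM in AsiSI siNC, and 229 and 199 CPM in Flp-In siMePCE against 189 and 190 CPM in Flp-In siNC. It was lower in AsiSI siMePCE and higher in Flp-In siMePCE than in each line's siNC libraries, with log2 fold changes of -0.12 (edgeR adjusted p = 0.269, SE 0.0845) and 0.17 (edgeR adjusted p = 0.105, SE 0.0846). Approximate 95% intervals for XRCC6 ran between -0.29 and 0.04 in AsiSI and between 0.01 and 0.34 in Flp-In. These intervals use the normal distribution and are somewhat too narrow. The unadjusted p of edgeR's quasi-likelihood test for XRCC6 in Flp-In was 0.0511. The Flp-In log2 fold change dropped to 0.05 when siMePCE replicate 1 of that line was left out. It was 0.27 when siMePCE replicate 2 was left out instead. The settings that follow kept every library of that line. XRCC6 passed in Flp-In with a stricter filter of at least 1 CPM in 2 libraries (0.26, edgeR adjusted p = 0.00737). It also passed there with a replicate block (0.17, edgeR adjusted p = 0.0474) and with only the 4 libraries compared (0.19, 0.018). It did not with DESeq2 (adjusted p = 0.0739), with DESeq2's size factors (edgeR adjusted p = 0.0641) or with no filter (0.283). DESI1, which starts 120 bases from XRCC6 on the opposite strand, fell, with log2 fold changes of -1.25 in AsiSI (edgeR adjusted p = 1.18e-08) and -0.85 in Flp-In (2.45e-06). Pseudogene rows of XRCC6 held at most 55 counts a library, against at least 7747 for XRCC6. Neighbours that start head to head with a member were looked up by position after the data were seen.

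PRKDC, which encodes the kinase that Ku recruits and lies at chr8:48685672-48872738 on the minus strand, fell in both lines. It had 432 and 396 CPM in AsiSI siMePCE, against 901 and 818 CPM in AsiSI siNC. In Flp-In siMePCE it had 385 and 352 CPM, against 687 and 655 CPM in Flp-In siNC. Both siMePCE libraries lay below both siNC libraries in each line. PRKDC fell 2.07-fold in AsiSI (log2 fold change -1.05, edgeR adjusted p = 5.83e-10, SE 0.0798) and 1.82-fold in Flp-In (-0.86, edgeR adjusted p = 1.12e-08, SE 0.0795). MCM4, a subunit of the replicative helicase that starts 7 bases from PRKDC on the opposite strand, also fell, with log2 fold changes of -0.95 in AsiSI (edgeR adjusted p = 9.34e-09) and -1.0 in Flp-In (4.12e-09).

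Of the 3 end-processing genes, DCLRE1C and POLL fell in both lines and POLM passed the test in neither. DCLRE1C, which encodes Artemis and lies at chr10:14939358-14996431 on the minus strand, had 57.5 and 57.4 CPM in AsiSI siMePCE, against 82.5 and 70.5 CPM in AsiSI siNC. It had 68.8 and 66.4 CPM in Flp-In siMePCE, against 78.7 and 85.1 CPM in Flp-In siNC, and in neither line did the groups overlap. It fell 1.33-fold in AsiSI (edgeR adjusted p = 0.00119, SE 0.0937) and 1.21-fold in Flp-In (edgeR adjusted p = 0.0210, SE 0.0933). The Flp-In call was lost without siMePCE replicate 2 (edgeR adjusted p = 0.118) and without siNC replicate 2 (0.170), and with the stricter filter (0.0590). SUV39H2, whose row shares 12.2% of the DCLRE1C span and holds 0.732 times its counts, fell in AsiSI (log2 fold change -0.51, edgeR adjusted p = 3.49e-04) and in Flp-In (-0.29, 0.0268), where its call was lost without siMePCE replicate 2 (0.180), without siNC replicate 2 (0.161) and with the stricter filter (0.0655).

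POLL (chr10:103338639-103348027, minus strand) and POLM (chr7:44111661-44122129, minus strand) encode gap-filling polymerases. POLL had 5.34 and 5.0 CPM in AsiSI siMePCE against 8.90 and 7.45 CPM in AsiSI siNC, and 8.27 and 6.62 CPM in Flp-In siMePCE against 12.2 and 13.3 CPM in Flp-In siNC. Its groups did not overlap in either line, and it fell 1.58-fold in AsiSI (log2 fold change -0.66, edgeR adjusted p = 0.00332, SE 0.169) and 1.71-fold in Flp-In (-0.78, edgeR adjusted p = 5.31e-04, SE 0.163). POLL lies wholly inside the span of DPCD, on the other strand, whose row holds 1.81 times the counts of POLL and fell as well, by 0.78 in AsiSI (edgeR adjusted p = 1.69e-04) and 0.61 in Flp-In (0.00126). How the counting treated strand and overlaps is not given in the sources used here, so the POLL value is uncertain. The same holds for DCLRE1C, with 12.2% of its span shared with SUV39H2. POLM had 6.10 and 5.97 CPM in AsiSI siMePCE against 7.63 and 7.87 CPM in AsiSI siNC, and 8.31 and 6.37 CPM in Flp-In siMePCE against 8.18 and 7.71 CPM in Flp-In siNC. The Flp-In groups overlapped. The log2 fold changes of POLM were -0.36 in AsiSI (edgeR adjusted p = 0.0990, SE 0.169) and -0.11 in Flp-In (edgeR adjusted p = 0.618, SE 0.168).

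XRCC4, the ligase cofactor, at chr5:82373317-82649606 on the plus strand, was the only one of the 10 members to rise in both lines. It had 129 and 117 CPM in AsiSI siMePCE, against 79.5 and 71.7 CPM in AsiSI siNC. It had 78.2 and 77.0 CPM in Flp-In siMePCE, against 53.8 and 49.2 CPM in Flp-In siNC, so all siMePCE libraries lay above the siNC libraries of their line. XRCC4 rose 1.63-fold in AsiSI (log2 fold change 0.70, edgeR adjusted p = 1.46e-06, SE 0.0904) and 1.51-fold in Flp-In (0.59, edgeR adjusted p = 1.64e-05, SE 0.0914). TMEM167A shares 366 bases with it and rose in Flp-In (0.36, edgeR adjusted p = 0.00332) and had a log2 fold change of 0.03 in AsiSI (0.815). Its Flp-In call was lost without siMePCE replicate 1 (edgeR adjusted p = 0.0700) and without siNC replicate 1 (0.0997).

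LIG4, the ligase, at chr13:108859787-108870716 on the minus strand, had 20.9 and 19.4 CPM in AsiSI siMePCE against 18.2 and 15.4 CPM in AsiSI siNC. It had 15.2 and 14.7 CPM in Flp-In siMePCE against 19.3 and 18.0 CPM in Flp-In siNC, a fall of 1.25-fold (log2 fold change -0.32, edgeR adjusted p = 0.0483, SE 0.127). That call was lost on leaving out any of the 4 Flp-In libraries (edgeR adjusted p of 0.0980 without siMePCE replicate 1, 0.179 without siMePCE replicate 2, 0.232 without siNC replicate 1 and 0.0892 without siNC replicate 2), with DESeq2 (0.0618), with DESeq2's size factors (0.0592) and with the stricter filter (0.0960). In AsiSI the log2 fold change was 0.26 (edgeR adjusted p = 0.104, SE 0.126), which the stricter filter made a call (0.34, edgeR adjusted p = 0.0215). The groups did not overlap in either line, and lay in opposite directions. ABHD13, which starts 24 bases from LIG4 on the opposite strand, had log2 fold changes of 0.06 in AsiSI and 0.09 in Flp-In and passed the test in neither.

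The XRCC4 relatives NHEJ1 (chr2:219934077-220025591, minus strand) and PAXX (chr9:139886874-139888436, plus strand) also differed. NHEJ1 had 24.6 and 24.1 CPM in AsiSI siMePCE against 31.5 and 32.6 CPM in AsiSI siNC, and 31.5 and 30.8 CPM in Flp-In siMePCE against 25.6 and 28.8 CPM in Flp-In siNC. It fell 1.32-fold in AsiSI (log2 fold change -0.40, edgeR adjusted p = 0.00502, SE 0.107), while in Flp-In, where its siMePCE libraries lay above siNC, the value was 0.19 (edgeR adjusted p = 0.153, SE 0.107). With the stricter filter NHEJ1 was called higher in Flp-In (0.28, edgeR adjusted p = 0.0253). A row with no symbol on the same strand covers 93.5% of the NHEJ1 span and holds 0.715 times its counts. That row had log2 fold changes of -0.12 in AsiSI (edgeR adjusted p = 0.443) and 0.33 in Flp-In (0.0292). PAXX had 2.14 and 1.49 CPM in AsiSI siMePCE, against 5.04 and 4.56 CPM in AsiSI siNC, and 2.66 and 2.61 CPM in Flp-In siMePCE, against 6.78 and 6.44 CPM in Flp-In siNC. These values rest on 66 to 291 counts a library, and the groups did not overlap in either line. PAXX fell by the largest factor of the 10 members, 2.65-fold in AsiSI (log2 fold change -1.40, edgeR adjusted p = 2.14e-05, SE 0.221) and 2.51-fold in Flp-In (-1.33, edgeR adjusted p = 2.29e-05, SE 0.211). No other row overlaps PAXX, which spans 1563 bases.

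**Figure D2:**
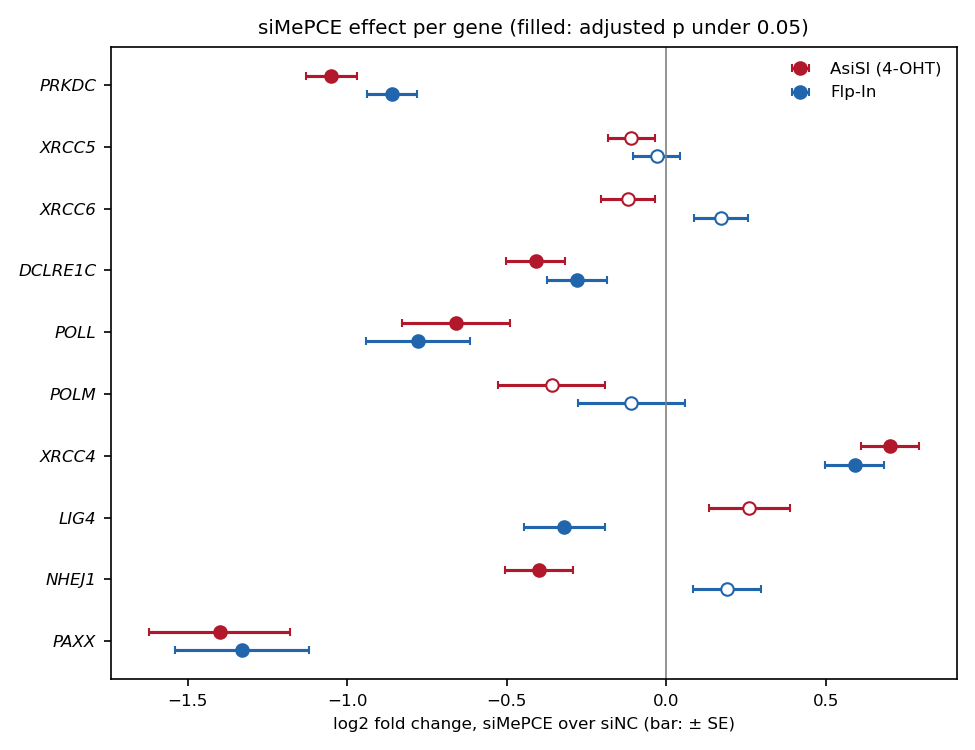
Log2 fold change of siMePCE over siNC in AsiSI and in Flp-In for the 10 members (points, filled where the adjusted p is under 0.05, with bars of 1 SE). PAXX and PRKDC lie farthest below 0 in both lines, and XRCC4 lies above 0. NHEJ1, LIG4 and XRCC6 have opposite signs in the 2 lines, XRCC6 without a call in either.

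The difference of the siMePCE effect between lines was tested in the same fit, where 1.81% of rows were lower and 2.6% higher in AsiSI than in Flp-In, and 3.41% and 3.2% of protein-coding rows. NHEJ1 was the one member called, with a difference of -0.59 in log2 fold change (edgeR adjusted p = 0.0250, SE 0.152). That call was lost on leaving out any of 5 of the 8 libraries: AsiSI siMePCE replicate 2 (edgeR adjusted p = 0.0552), AsiSI siNC replicate 2 (0.0520), Flp-In siMePCE replicate 1 (0.0909), Flp-In siMePCE replicate 2 (0.0540) and Flp-In siNC replicate 1 (0.206). The same-strand row that covers 93.5% of the NHEJ1 span had a difference of -0.45 without passing the test (edgeR adjusted p = 0.138). How reads in the shared span were counted is not given, so the NHEJ1 difference is uncertain. LIG4 differed by 0.58 without passing the test (edgeR adjusted p = 0.0668, SE 0.179). The LIG4 difference passed with DESeq2 (adjusted p = 0.0220), with the stricter filter (edgeR adjusted p = 0.0409) and without AsiSI siNC replicate 1 (edgeR adjusted p = 0.0368). The other 8 members had differences between -0.30 and 0.12.

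Under siNC, 3 members were higher and 1 lower in AsiSI than in Flp-In, where 14.4% of all rows were higher and 15.2% lower, and 17.9% and 23.5% of protein-coding rows. This comparison shares its siNC libraries with the siMePCE comparisons. XRCC5 was 1.43-fold higher in AsiSI (edgeR adjusted p = 1.03e-05), XRCC4 1.47-fold higher (5.58e-05) and PRKDC higher by 0.36 on the log2 scale (0.00125). POLL was 1.56-fold lower (edgeR adjusted p = 0.00387), a call lost without AsiSI siNC replicate 2 (0.0694) or Flp-In siNC replicate 2 (0.0717).

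CPM was also divided by the annotated span in kilobases, introns included. In AsiSI siNC the highest mean was 4.66 CPM per kb, for XRCC6, followed by PRKDC with 4.59, and in Flp-In siNC 4.42, for XRCC6, followed by PAXX with 4.23. The lowest were XRCC4, with 0.274 in AsiSI siNC and 0.186 in Flp-In siNC, and NHEJ1, with 0.351 and 0.297. XRCC4 spans 276.3 kb and PAXX 1.6 kb. The share of a span that is exon was not taken into account, so this order does not rank transcript levels between genes. A same-strand row covers 93.5% of the NHEJ1 span, and how shared reads were counted is not given. The listed length of each row is its whole span, so reads in introns lie within the counted length. CPM and fold changes here therefore do not separate unspliced from spliced RNA. XRCC6 and PRKDC in AsiSI siNC differed by less than the spread of PRKDC.

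Ratios of counts inside a library need no scaling between libraries. The ratio of XRCC4 to LIG4 was 6.18 and 6.04 in AsiSI siMePCE, against 4.37 and 4.66 in AsiSI siNC. It was 5.15 and 5.24 in Flp-In siMePCE, against 2.79 and 2.73 in Flp-In siNC, so the ratio was 1.35-fold higher with siMePCE in AsiSI and 1.88-fold higher in Flp-In. The ratio of PAXX to XRCC4 was 0.0166 and 0.0127 in AsiSI siMePCE against 0.0634 and 0.0636 in AsiSI siNC, and 0.0340 and 0.0338 in Flp-In siMePCE against 0.126 and 0.131 in Flp-In siNC. It was 4.38-fold lower in AsiSI and 3.79-fold lower in Flp-In. The ratio of PRKDC to XRCC5 was 1.19 and 1.10 in AsiSI siMePCE against 2.30 and 2.09 in AsiSI siNC, and 1.43 and 1.33 in Flp-In siMePCE against 2.46 and 2.44 in Flp-In siNC.

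Each of those 3 ratios, and those of NHEJ1 to XRCC4, DCLRE1C to PRKDC and POLL to POLM, gave an exact permutation p of 0.0556 over 36 assignments within line (two-sided), the smallest this design allows, and 0.0649 after Benjamini-Hochberg adjustment over 7 ratios. The mean log2 differences were -0.75 for NHEJ1 to XRCC4, 0.62 for DCLRE1C to PRKDC and -0.48 for POLL to POLM. The Ku ratio, XRCC5 to XRCC6, was 1.89 and 2.06 in AsiSI siMePCE against 1.96 and 1.95 in AsiSI siNC, and 1.18 and 1.34 in Flp-In siMePCE against 1.48 and 1.41 in Flp-In siNC. Its mean log2 difference was -0.09 (exact permutation p = 0.222).

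**Figure D3:**
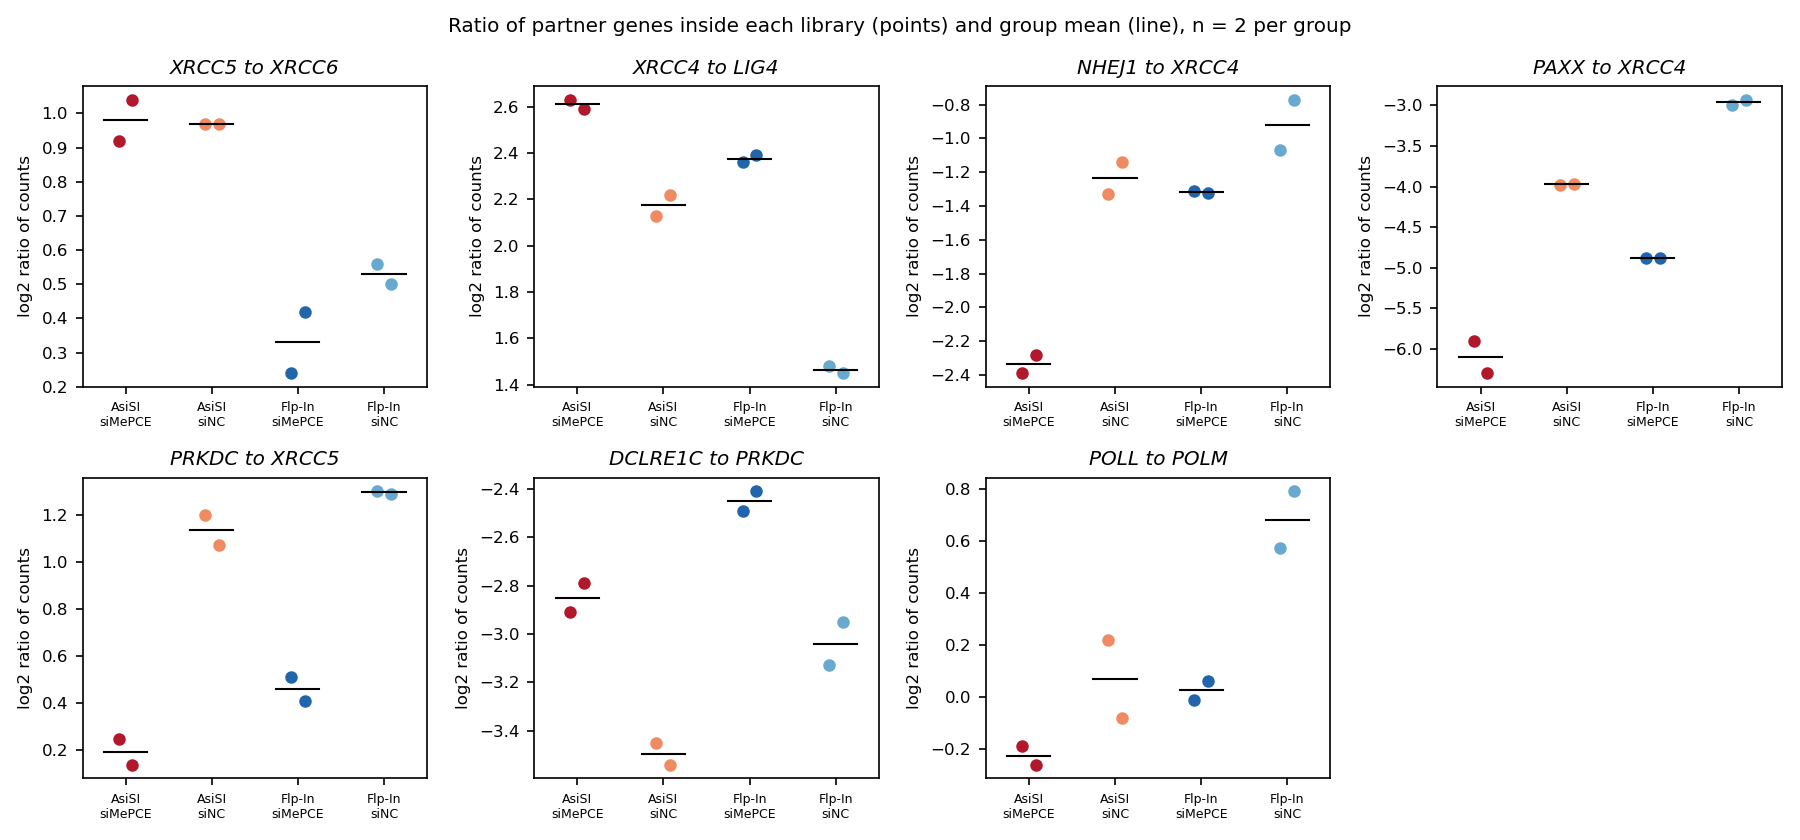
Log2 ratio of counts of 7 pairs of member genes in each library (points, 2 per group) with the group mean (line); each panel has its own axis. XRCC5 to XRCC6 differs little between siMePCE and siNC within AsiSI, while XRCC4 to LIG4 is higher, and PAXX to XRCC4 lower, in siMePCE in both lines.

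The genes whose centred log2 CPM lay nearest to a member's over the 8 libraries were named for the 5 members called in both lines, among 11102 candidates. Nearest to PRKDC were CUL9, at a distance of 0.16, EDEM1 (0.167) and PIGX (0.207). Nearest to PAXX were SUN2 (0.174), SPAG5 (0.235) and GSTA4 (0.237). Nearest to XRCC4 were PIWIL4-AS1 (0.208), RB1CC1 (0.214) and ZFAND3 (0.229). DCLRE1C had PTGES3 (0.142), DMXL2 (0.152) and GNRHR2 (0.16), and POLL had PLA2G12A (0.208), GPSM2 (0.21) and CDC27 (0.248). Distances are Euclidean, on the log2 scale, and describe likeness only.

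Of 17 accessory factors of end joining, 11 fell and 1 rose in AsiSI, with a median log2 fold change of -0.41, and 7 fell and 1 rose in Flp-In, with a median of -0.08. Beside these and the counts of the next lists stand the 35.1% of protein-coding rows that fell in AsiSI and the 34.3% in Flp-In. H2AX, the histone marked around breaks, fell to 16.8 ± 1.77 CPM in AsiSI siMePCE, against 49.5 ± 4.93 CPM in AsiSI siNC (SD, n = 2; 2.95-fold), and to 20.5 ± 3.49 CPM in Flp-In siMePCE, against 63.0 ± 0.852 CPM in Flp-In siNC (3.07-fold). ATM, the kinase activated by breaks, fell 1.65-fold in AsiSI (edgeR adjusted p = 1.77e-06) and 1.22-fold in Flp-In (0.0154). The Flp-In call of ATM was lost without siMePCE replicate 1 (edgeR adjusted p = 0.0930), without siNC replicate 1 (0.219) and with the stricter filter (0.05 after rounding, just above the threshold). CYREN, an end-joining modulator, fell by 0.58 in AsiSI and 0.99 in Flp-In on the log2 scale, and a row that overlaps it holds 0.531 times its counts. APLF rose in AsiSI (0.55) and WRN in Flp-In (0.51).

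Of 12 genes of alternative end joining, the route that uses short homologies, 10 fell and 2 were not called in AsiSI, and 11 fell and 1, HELQ, rose in Flp-In (log2 fold change 0.36, edgeR adjusted p = 0.0138). The HELQ call was lost without Flp-In siMePCE replicate 1 (edgeR adjusted p = 0.0597), siMePCE replicate 2 (0.0716) or siNC replicate 2 (0.183), and HELQ was called higher in AsiSI with the stricter filter (0.0248). The medians were -0.64 in AsiSI and -0.46 in Flp-In. LIG1, a ligase of that route, fell 2.21-fold in AsiSI and 1.69-fold in Flp-In, ERCC1 1.75-fold and 1.52-fold, and PARP1 1.70-fold and 1.36-fold. Of 25 genes of homologous recombination, 19 fell in AsiSI and 17 fell and 1 rose in Flp-In, with medians of -0.58 and -0.44. XRCC3, SFR1 and RAD54L, which act with the strand-exchange protein, fell in both lines, XRCC3 by 2.53-fold in AsiSI and 2.35-fold in Flp-In, SFR1 by 2.31-fold and 2.83-fold, and RAD54L by 2.25-fold and 1.72-fold. Each has an overlapping row that holds more counts than its own (1.39 to 6.48 times). RBBP8 stands in both of these lists. These counts were not tested against the count of the core genes.

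**Figure D4:**
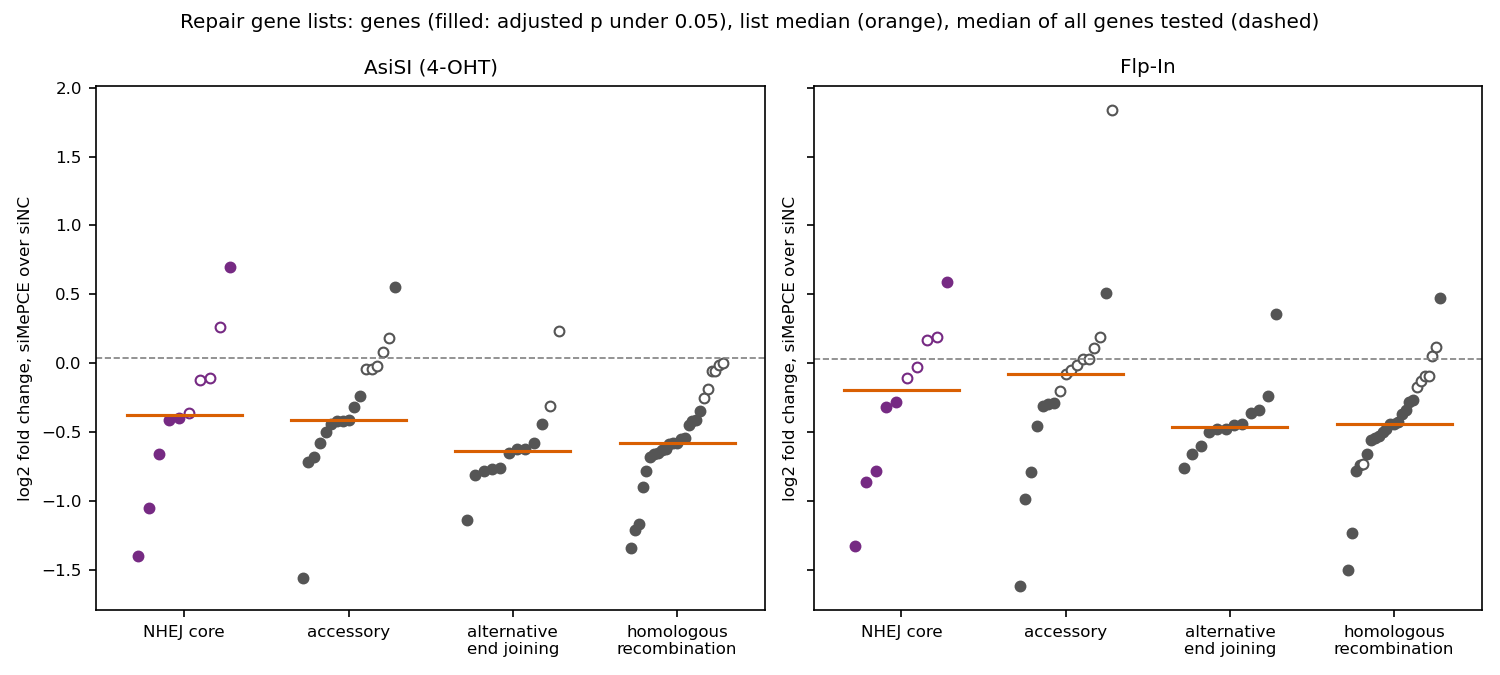
Log2 fold change of siMePCE over siNC for each gene of the core, accessory, alternative end joining and homologous recombination lists in AsiSI and Flp-In (points, filled where the adjusted p is under 0.05), with each list's median (orange) and that of all rows tested (dashed). The medians of the core genes are -0.38 in AsiSI and -0.20 in Flp-In, and those of alternative end joining -0.64 and -0.46.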

How the data were processed

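The authors deposited 1 table of raw counts per gene for the 8 libraries. Per the submitters' processing notes it was made with Trim Galore, FastQC, STAR, SAMtools and featureCounts on hg19, and per the labels' protocols the libraries came from a directional kit with ribosomal RNA removal. How strand and overlapping genes were counted is not given in the sources used here. The listed length of every row equals its start-to-end span, so the counted length includes introns. Replicate libraries differed by more than counting noise in every group (chi-square per degree of freedom of 4.51 to 11.3), and each counts as 1 sample.

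Counts were tested with edgeR 4.0.16 (R 4.3.3): filterByExpr by group, TMM scaling, robust dispersions, a quasi-likelihood fit of 4 group means over all 8 libraries, and Benjamini-Hochberg adjustment over 43321 rows, with a call at an adjusted p under 0.05. CPM is the count per 1000000 of the library size over tested rows times its TMM factor, except that the cell type markers use the plain library total. The fit was also run on simulated counts, drawn independently from its own dispersions with 200 genes changed, far fewer than were called here. No result given here rests on that run. Alternatives were DESeq2 1.42.0, its size factors, no filter, at least 1 CPM in 2 libraries, a replicate block, only the 4 libraries compared, rows left out, and each library left out. Named genes were the 10 members, MEPCE, up to 3 called genes per list and line by smallest adjusted p, rows holding at least 0.5 times a member's counts, and the 3 genes nearest to each member called in both lines, among those of mean CPM 10 or more. APLF, WRN, HELQ, TDP1 and BLM, and neighbours of members by position, were named after their values were seen. Some genes that the rule names are not reported here. The members and lists were chosen with earlier results of these data known. Promoter matching found RefSeq entries by symbol, and exons came from GENCODE. Fold changes and intervals rest on 2 libraries a group, and cover the spread between them only.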

Additional observations from a re-analysis of the deposited data

Results flagged for a closer look

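For 4 of the 63 distinct genes in the 4 lists (6.35%, beside 6.61% of protein-coding rows) the effect of siMePCE differed between AsiSI and Flp-In by a test of the difference itself (edgeR interaction contrast, adjusted over all rows). NHEJ1 had a difference of -0.59 in log2 fold change (AsiSI minus Flp-In, edgeR adjusted p = 0.0250), falling in AsiSI with 24.3 ± 0.372 CPM in siMePCE against 32.1 ± 0.750 CPM in siNC (SD, n = 2). That call was lost on leaving out any of 5 libraries. A same-strand row that covers 93.5% of the NHEJ1 span had a difference of -0.45 (edgeR adjusted p = 0.138). TDP1, an accessory factor that removes protein adducts from DNA ends, had a difference of -0.61 (edgeR adjusted p = 0.0172). The TDP1 call was lost without AsiSI siMePCE replicate 2 (edgeR adjusted p = 0.0632), AsiSI siNC replicate 2 (0.0517), Flp-In siMePCE replicate 1 (0.0744), Flp-In siNC replicate 1 (0.113) or Flp-In siNC replicate 2 (0.0614). Its means were 29 ± 2.28 CPM in AsiSI siMePCE against 38.7 ± 2.85 CPM in AsiSI siNC, and 41.6 ± 1.06 CPM in Flp-In siMePCE against 36.4 ± 0.792 CPM in Flp-In siNC. RAD51B, a homologous recombination gene, had a difference of 0.74 (edgeR adjusted p = 2.64e-04), a call kept on leaving out each of the 8 libraries in turn. It fell in Flp-In, with 259 ± 13 CPM in siMePCE against 434 ± 20.3 CPM in siNC, and had 346 ± 9.97 CPM in AsiSI siMePCE against 347 ± 1.94 CPM in AsiSI siNC. BLM, a helicase of homologous recombination, had a difference of -0.53 (edgeR adjusted p = 0.0274). The BLM call was lost without AsiSI siMePCE replicate 2 (edgeR adjusted p = 0.0940), AsiSI siNC replicate 1 (0.0751), Flp-In siMePCE replicate 1 (0.0816), Flp-In siMePCE replicate 2 (0.0770), Flp-In siNC replicate 1 (0.0881) or Flp-In siNC replicate 2 (0.162). It rose in Flp-In, with 59.9 ± 0.734 CPM in siMePCE against 43.4 ± 2.22 CPM in siNC, and had 40.6 ± 2.78 CPM in AsiSI siMePCE against 42.5 ± 2.27 CPM in AsiSI siNC. In each of these the cell line and the 4-OHT treatment cannot be told apart.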

How the results depend on the processing

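Of the values of single members under the alternatives, 555 kept their direction and their side of the threshold, 17 lost a call, 11 gained one and 7 turned direction. Those that turned were all uncalled: XRCC5 in Flp-In (0.05 with at least 1 CPM in 2 libraries), DCLRE1C under siNC (0.03 without AsiSI siNC replicate 2), POLL in the difference between lines (-6.28e-05 without AsiSI siNC replicate 2 and -0.05 without Flp-In siMePCE replicate 2), POLM in Flp-In (0.06 without Flp-In siMePCE replicate 2) and under siNC (0.03 without Flp-In siNC replicate 1), and PAXX in the difference (0.16 without AsiSI siMePCE replicate 2). With at least 1 CPM in 2 libraries, fewer rows were tested, and 3 members fell and 3 rose in Flp-In, 2 rose in AsiSI and 1 was higher in the difference. Log2 fold changes in Flp-In moved up from the main fit for PRKDC (-0.86 to -0.78), XRCC5 (-0.03 to 0.05) and XRCC6 (0.17 to 0.26). Those of DCLRE1C (-0.28 to -0.19), LIG4 (-0.32 to -0.24) and NHEJ1 (0.19 to 0.28) moved up as well. Calls with small fold changes thus depend on this setting. In that setting the other lists gave 2 accessory genes higher in Flp-In and 3 lower in the difference, 1 alternative end joining gene higher in AsiSI, 1 lower in the difference and 5 higher under siNC, and 2 homologous recombination genes lower in the difference and 2 higher under siNC. DESeq2 gave 1 member higher, 2 accessory genes lower and 1 alternative end joining gene lower in the difference. With only the 4 libraries compared, 2 members rose in Flp-In and 2 were lower under siNC, 2 accessory genes rose in Flp-In, and 5 alternative end joining and 2 homologous recombination genes were higher under siNC. That last count was also 2 with DESeq2's size factors, without the mitochondrial, 7SK, 7SL and rRNA rows and with no filter. The 4 members with an overlapping row of at least 0.5 times their counts are DCLRE1C, NHEJ1, POLL and XRCC4. With them left out, 2 members fell in AsiSI and 3 in Flp-In, and 0 rose in either. In the difference and under siNC, 0 were then lower. This rule takes no account of shared length, and TMEM167A shares 0.132% of the XRCC4 span. The cause of these changes was not tested.

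Same-numbered libraries had correlations of deviations between 0.043 and 0.155, all positive but small. Adding a replicate block raised the number of rows called lower and higher in every comparison. For the difference between lines, rows called went from 785 lower and 1127 higher to 1431 lower and 1658 higher. An effect shared by same-numbered libraries is therefore possible, and its source was not tested. The main fit has no block and leaves out any such effect. With a replicate block, 2 members rose in Flp-In (XRCC4 and XRCC6) and 1, LIG4, was higher in the difference (0.59, edgeR adjusted p = 0.0307). The block also gave 3 accessory, 1 alternative end joining and 3 homologous recombination genes lower in the difference, and 5 alternative end joining and 2 homologous recombination genes higher under siNC.

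Each library was left out in turn, the lone library of its group being assumed to vary like the others. A library outside a comparison enters it only through the shared spread, the scaling and the filter. Runs that left out such a library could therefore change little, and they count among the 555 values above. The members that fell then numbered 5 to 5 in AsiSI and 3 to 5 in Flp-In, and those that rose 1 to 1 and 1 to 2. In the difference 0 to 1 were lower and 0 to 1 higher, and under siNC 0 to 1 were lower. Accessory genes gave 7 to 11 lower in AsiSI, 4 to 8 lower and 1 to 2 higher in Flp-In, 0 to 2 lower and 0 to 1 higher in the difference, and 1 to 3 lower and 2 to 4 higher under siNC. Alternative end joining gave 0 to 1 higher in Flp-In, 0 to 1 lower in the difference and 2 to 4 higher under siNC. Homologous recombination gave 0 to 3 lower in the difference, and 5 to 10 lower and 1 to 3 higher under siNC. Over the same runs the uncalled values that turned direction ranged between -0.22 and 0.03 (DCLRE1C under siNC), -0.05 and 0.29 (POLL in the difference), -0.33 and 0.06 (POLM in Flp-In), -0.05 and 0.03 (POLM under siNC) and -0.37 and 0.16 (PAXX in the difference). All 7 ratios kept their sign. PAXX, POLL and POLM, at 66 to 557 counts a library, have the largest errors of the members.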
